A study of Mus musculus with 12 samples.

Results

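The Slc25 genes encode the mitochondrial carrier family, whose transcripts were measured here in the plantaris, a mostly fast-fibred calf muscle of the mouse. Members were the genes whose single platform symbol is Slc25a followed by a number. There were 46 of them, each with 1 row, among 22180 genes with a single symbol. Of the 46 members, 37 passed the filter on low values and were tested together with all 13747 genes that passed it, and 9 did not pass. The filter kept a gene whose value lay above 4.56, the median over every row and array, on at least 3 arrays.

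The series holds 12 Affymetrix whole-transcript arrays in 4 groups of 3, all of plantaris from male mice aged 12 weeks that had been without food for 3 h before the exercise. Both wild-type mice and mice lacking REDD1 were studied, and in each genotype one group stayed sedentary and another exercised. Exercise was a single aerobic bout, and the muscle was taken under isoflurane 1 h after its end. REDD1, encoded by Ddit4, restrains mTORC1 signalling and is induced by several stresses. The labels describe the knockout only as REDD1 null, name no litter, batch or hybridisation day, and state no pooling, so p-values measure the spread between these arrays only.

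Mitochondrial carriers sit in the inner mitochondrial membrane, with few exceptions, and exchange nucleotides, phosphate, amino acids, carboxylates, carnitine esters and cofactors between the cytosol and the matrix. In working muscle the ADP/ATP carriers export newly made ATP and return ADP, and the phosphate carrier supplies the other substrate of ATP synthase. The ATP-Mg/phosphate carriers change the total adenine nucleotide content of the matrix and respond to calcium through a domain that faces the intermembrane space.

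All values are log2 expression values of a whole tissue, in which fewer cells of a type and less RNA per cell cannot be told apart. Ddit4 ran at 5.83 to 6.13 in sedentary wild-type, 8.40 to 9.05 in exercised wild-type, 5.08 to 5.44 in sedentary knockout and 5.72 to 6.77 in exercised knockout muscle. The knockout minus wild-type difference of Ddit4, averaged over conditions, was -1.54 (SE 0.16; limma, Benjamini-Hochberg adjusted p = 0.000137). In exercised muscle it was -2.37 (SE 0.22; adjusted p = 0.00011), and in sedentary muscle -0.71 (SE 0.22), which missed the threshold at an adjusted p of 0.411. Where its probes lie relative to the deleted sequence is not given in the sources used here. The muscle actin, muscle creatine kinase and fast myosin genes Acta1, Ckm and Myh4 lay between 13.10 and 13.65 on every array. Correlations between arrays over all rows ran from 0.967 to 0.985. The knockout sedentary array 3 stood apart in its fibroblast and matrix markers, whose mean over 10 genes was 1.0 above the gene means, against -0.32 to 0.17 on the other arrays.

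Promoter windows are shown for the members with the clearest exercise response, Slc25a25 and Slc25a33. Each window runs from 250 bases before to 50 bases after a RefSeq transcript start (assembly GRCm38.p6), and windows were given for 36 members. In the Slc25a25 window at chr2:32424017-32424316 (minus strand), the capitals mark the palindromic cAMP response element TGACGTCA, the DNA element bound by CREB-family factors, whose first base lies 150 bases before the start. In the Slc25a33 window at chr4:149774218-149774517 (minus strand), the capitals mark a shorter core of that element, TGACG, on either strand, and an E-box, CACGTG, which overlaps one of the cores.
Slc25a25: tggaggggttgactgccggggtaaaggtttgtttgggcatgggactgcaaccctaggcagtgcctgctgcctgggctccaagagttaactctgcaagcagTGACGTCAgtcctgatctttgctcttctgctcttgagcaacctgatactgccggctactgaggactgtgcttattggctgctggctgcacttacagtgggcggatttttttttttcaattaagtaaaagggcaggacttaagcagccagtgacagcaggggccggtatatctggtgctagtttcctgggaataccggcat
Slc25a33: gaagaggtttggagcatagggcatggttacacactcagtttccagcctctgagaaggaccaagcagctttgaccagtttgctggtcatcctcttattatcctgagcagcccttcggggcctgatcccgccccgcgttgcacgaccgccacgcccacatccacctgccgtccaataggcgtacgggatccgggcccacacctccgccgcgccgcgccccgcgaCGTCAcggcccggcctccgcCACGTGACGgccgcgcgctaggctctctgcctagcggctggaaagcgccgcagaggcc

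The full element, searched on both strands, was found in 2 of the 46 member windows (4.35%), those of Slc25a25 and Slc25a36, and in 1.79% of all 32851 windows. The core TGACG, which the full element contains, was in 28.3% of member windows and 20.8% of all. The E-box was in 17.4% of member windows and 7.15% of all. The estrogen-related receptor element TCAAGGTCA was in 0 member windows and in 0.423% of all. Slc25a25 had 2 further windows without any of these motifs, and the single window of Slc25a30 had none. Median GC content was 59.3% in the member windows and 52.7% over all windows. These matches are letters in a sequence, and no binding was measured.

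The first comparison asked which carriers differed 1 h after exercise. Averaged over the genotypes, Slc25a25, Slc25a30 and Slc25a33 rose and no member fell. Thus 3 of the 37 tested members passed a Benjamini-Hochberg adjusted p of 0.05 in the limma fit, while 1.6% of all tested genes did. In wild-type muscle alone 1 member passed, Slc25a25, against 0.567% of all genes. In knockout muscle alone 1 member passed, Slc25a33, against 0.276% of all genes. The median averaged exercise difference of the tested members was 0.02, and that of all tested genes was -0.01.

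Slc25a25, an ATP-Mg/phosphate carrier with calcium-binding motifs, measured 5.55, 6.40 and 6.59 in sedentary wild-type, 8.02, 8.28 and 8.01 in exercised wild-type, 7.09, 6.16 and 7.13 in sedentary knockout and 7.76, 7.92 and 7.93 in exercised knockout muscle. Every exercised array lay above every sedentary array of the same genotype, and the lowest value of the 12 was on a sedentary wild-type array. The exercise difference averaged over genotypes was 1.496 (SE 0.18), or 2.82-fold, with a limma adjusted p of 0.000292. In wild-type muscle it rose by 1.92 (SE 0.25; 3.78-fold; adjusted p = 0.00142). In knockout muscle the difference was 1.07 (SE 0.25; 2.10-fold) and missed the threshold at an adjusted p of 0.106. Without the wild-type sedentary array 1 the knockout difference passed at an adjusted p of 0.0445. That array is not in this contrast, so the difference stayed at 1.07, and only the shared estimate of the spread changed. Leaving out 1 array gave knockout differences from 0.76 to 1.24. Across the alternative settings, with or without moderation, the adjusted p ran from 0.0445 to 0.43.

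Slc25a33, a pyrimidine nucleotide carrier that supplies the matrix for mitochondrial DNA and RNA synthesis, measured 7.44, 7.30 and 7.27 in sedentary wild-type, 8.19, 7.64 and 7.86 in exercised wild-type, 7.57, 7.52 and 7.54 in sedentary knockout and 8.70, 8.65 and 8.33 in exercised knockout muscle. The exercised arrays again lay above the sedentary arrays in both genotypes, and the knockout exercised arrays were the highest of all. Averaged over genotypes it rose by 0.79 (SE 0.09), or 1.72-fold, at a limma adjusted p of 0.000292. In knockout muscle it rose by 1.01 (SE 0.13; 2.02-fold; adjusted p = 0.00214). The wild-type difference of 0.56 (SE 0.13) had an adjusted p of 0.0928, and without the wild-type exercised array 2 it was 0.69 with an adjusted p of 0.0336. Across the alternative settings, with or without moderation, this adjusted p ran from 0.0336 to 0.378.

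Slc25a30, a member close in sequence to the uncoupling proteins, measured 6.18, 5.90 and 7.39 in sedentary wild-type, 7.25, 8.07 and 8.32 in exercised wild-type, 6.85, 5.997 and 6.31 in sedentary knockout and 6.93, 7.64 and 7.46 in exercised knockout muscle. The sedentary wild-type array 3 lay above the exercised wild-type array 1, so these groups overlapped, while in the knockout the exercised arrays were all above the sedentary ones. Averaged over genotypes it rose by 1.18 (SE 0.24), or 2.26-fold, at a limma adjusted p of 0.0215. The averaged call was lost without any 1 of 7 arrays, namely without wild-type sedentary array 1 or 2, wild-type exercised array 2 or 3, knockout sedentary array 2 or knockout exercised array 2 or 3, with differences of 1.03 to 1.15 and adjusted p of 0.053 to 0.0715. The difference was 1.39 (SE 0.35; adjusted p = 0.114) in wild-type and 0.96 (SE 0.35; adjusted p = 0.375) in knockout muscle. Without the sedentary wild-type array 3 the wild-type difference was 1.84 and its adjusted p 0.0101. Across the alternative settings, with or without moderation, this adjusted p ran from 0.0101 to 0.507.

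**Figure D1:**
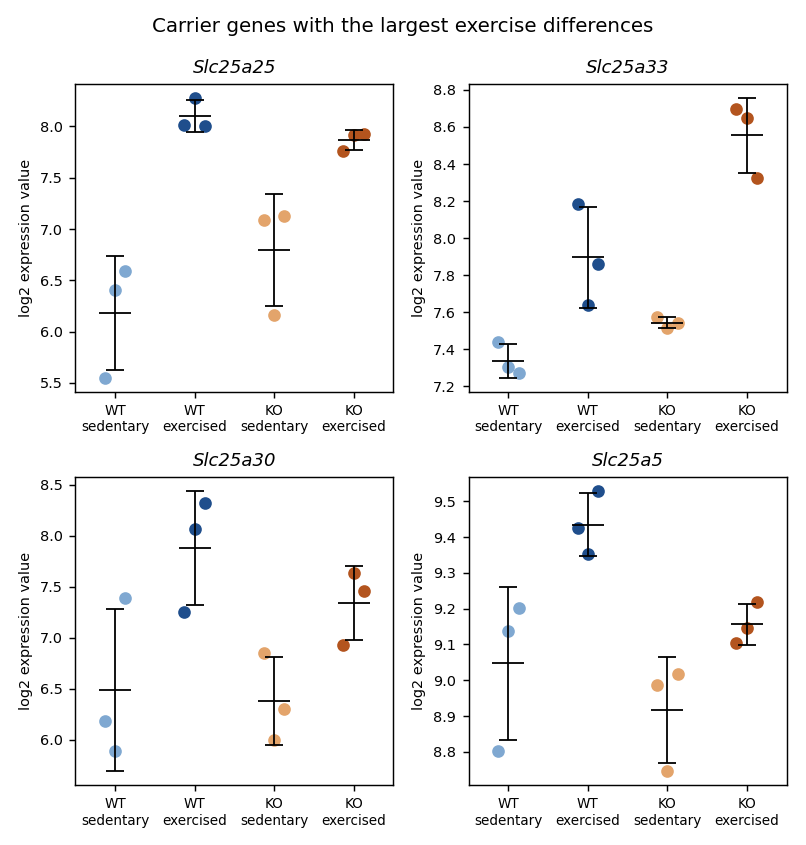
Log2 expression value on each array (points) of Slc25a25, Slc25a33, Slc25a30 and Slc25a5 in the 4 groups, with the group mean and SD (lines). The exercised arrays of Slc25a25 and Slc25a33 lie above the sedentary arrays in both genotypes, and those of Slc25a30 overlap with the sedentary arrays in the wild type.

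The endothelial markers moved with exercise on these arrays. Averaged over genotypes limma called 2 of 10 tested marker genes, Kdr and Cdh5, both lower, against 1.6% of all genes. At an unadjusted p under 0.05 there were 7, against 11.2%, and without moderation 1 was called. The mean of the list ran from 0.06 to 0.16 on the sedentary and from -0.24 to -0.02 on the exercised arrays. None of the list lay below the filter. Their part in the carrier results was not tested. The fibroblast and matrix markers moved with exercise in the knockout: their mean ran from -0.18 to 1.0 on the sedentary and from -0.32 to -0.21 on the exercised knockout arrays, without overlap, and their median exercise difference there was -0.58. In the wild type it was 0.07. In knockout muscle limma called 0 of these 10 genes, against 0.276% of all genes, and 7 had an unadjusted p under 0.05, against 8.93%. Without moderation 0 of all genes were called there, so the 0 of this list is uninformative. Without knockout sedentary array 3, on which these markers were highest, Slc25a33 had an exercise difference of 1.01 in knockout muscle (limma adjusted p = 0.00825). Its value on that array, 7.544, equals its group mean of 7.544. Leaving the array out therefore could not move the difference and says nothing on these markers. The part of these markers in the knockout result was not tested. Averaged over genotypes, the 12 genes of the fast-fibre list, which includes Acta1 and Ckm, held 0 genes called by limma. Over all genes 1.6% were called, a share at which 0 of 12 tells little. At an unadjusted p under 0.05 there were 0, against 11.2% of all genes, and without moderation 0 were called. The median averaged exercise difference of the list was 0.00, and its part in the carrier results was not tested.

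The ADP/ATP carriers Slc25a4 and Slc25a5 exchange matrix ATP for cytosolic ADP, and Slc25a4 is the main isoform of muscle and heart. Slc25a4 measured 11.93, 11.98 and 11.85 in sedentary wild-type, 11.78, 11.87 and 11.96 in exercised wild-type, 11.84, 11.83 and 11.69 in sedentary knockout and 11.89, 11.87 and 11.89 in exercised knockout muscle. Its exercise difference averaged over genotypes was 0.02 (SE 0.05), with a 95% interval of -0.09 to 0.13. Slc25a5, the more widely expressed isoform, measured 8.80, 9.14 and 9.20 in sedentary wild-type, 9.42, 9.35 and 9.53 in exercised wild-type, 8.99, 8.75 and 9.02 in sedentary knockout and 9.11, 9.15 and 9.22 in exercised knockout muscle. Its exercised arrays lay above its sedentary arrays in each genotype. The averaged difference was 0.31 (SE 0.08; 1.24-fold), and it missed the threshold at a limma adjusted p of 0.0655. It passed with arrays centred on their medians (0.33, adjusted p = 0.0406) and without the wild-type sedentary array 3 (0.35, adjusted p = 0.0493). Across the alternative settings, with or without moderation, its adjusted p ran from 0.0406 to 0.209.

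Slc25a3, the phosphate carrier, measured 9.87, 10.05 and 10.04 in sedentary wild-type, 10.03, 10.02 and 10.24 in exercised wild-type, 10.06, 9.88 and 9.76 in sedentary knockout and 10.10, 10.04 and 10.02 in exercised knockout muscle. Its groups overlapped in both genotypes, and the averaged difference of 0.13 (SE 0.07) had an adjusted p of 0.508. The testis ADP/ATP carrier Slc25a31 did not pass the low-value filter, with values from 3.26 to 3.76.

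No other ATP-Mg/phosphate carrier passed the test for exercise. Slc25a23 measured 7.31, 7.12 and 7.26 in sedentary wild-type, 6.83, 7.19 and 7.01 in exercised wild-type, 6.77, 6.98 and 7.20 in sedentary knockout and 6.41, 6.74 and 6.87 in exercised knockout muscle, and its averaged exercise difference was -0.26 (SE 0.10; adjusted p = 0.294). Slc25a24 measured 6.69, 6.79 and 6.54 in sedentary wild-type, 6.61, 6.63 and 6.63 in exercised wild-type, 6.47, 6.47 and 6.84 in sedentary knockout and 6.43, 6.67 and 6.70 in exercised knockout muscle, with a difference of -0.02 and a 95% interval of -0.20 to 0.16. Slc25a41, which lacks the calcium-binding domain, and Slc25a54 lay below the filter on all arrays. Slc25a41 measured 3.69, 3.71 and 3.75 in sedentary wild-type, 3.67, 3.72 and 3.80 in exercised wild-type, 3.504, 3.25 and 3.39 in sedentary knockout and 3.85, 3.27 and 4.004 in exercised knockout muscle. Slc25a54 measured 3.36, 3.48 and 3.22 in sedentary wild-type, 3.72, 3.38 and 3.34 in exercised wild-type, 3.74, 3.65 and 3.26 in sedentary knockout and 3.60, 3.60 and 3.46 in exercised knockout muscle. The uncoupling-protein relatives Slc25a14 and Slc25a27 had averaged exercise differences of -0.02 and 0.00.

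**Figure D2:**
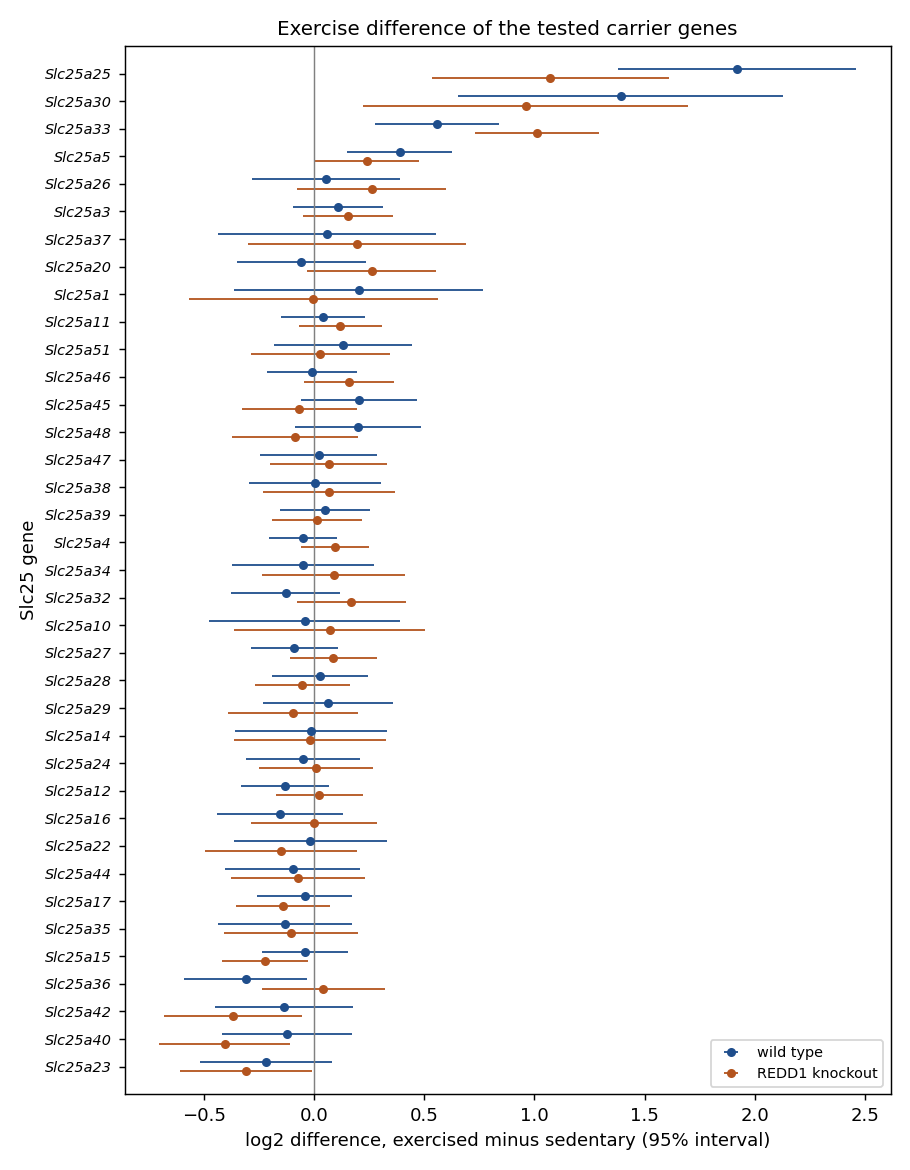
Exercised minus sedentary log2 difference of the tested carrier genes in wild-type and knockout muscle, with 95% intervals from the limma fit. Slc25a25, Slc25a30 and Slc25a33 stand to the right of the other members in both genotypes.

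Separation of the arrays was counted as well as the test. In wild-type muscle 4 members had all exercised arrays above all sedentary arrays (Slc25a5, Slc25a25, Slc25a33 and Slc25a45), which is to be read against 5.75% of all genes, and 0 lay below, against 7.14%. In knockout muscle 9 lay above (Slc25a4, Slc25a5, Slc25a20, Slc25a25, Slc25a27, Slc25a30, Slc25a32, Slc25a33 and Slc25a46), 24.3% of the tested members against 7.13% of all genes. There 2 lay below, Slc25a15 and Slc25a40, against 6.77%. Slc25a5, Slc25a25 and Slc25a33 separated upwards in both genotypes, 8.11% of the members against 1.44% of all genes, and 0 separated downwards in both, against 1.12%. By unadjusted limma p under 0.05, 5 members passed in wild-type (8.21% of all genes), 8 in knockout (8.93% of all genes) and 7 in the averaged comparison (11.2% of all genes).

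The second comparison asked whether the exercise response depended on REDD1. It was fitted as the knockout exercise difference minus the wild-type one, and 0 of the 37 members passed, as 0% of all genes did. At an unadjusted limma p under 0.05 there were 2 members, against 4.51% of all genes. Without variance moderation 0 members passed the adjusted threshold, as 0 of all genes did. For Slc25a25 the difference of responses was -0.85 (SE 0.36; 95% interval -1.61 to -0.08; adjusted p = 0.997). For Slc25a33 it was 0.46 (SE 0.19; 95% interval 0.06 to 0.85; adjusted p = 0.997). These are the members with the smallest p, in opposite directions, and neither response was shown to differ between genotypes. Without wild-type sedentary array 1 the value of Slc25a25 was -0.53 (adjusted p = 0.998). The fibroblast and matrix markers had a median difference of responses of -0.57, with 0 of 10 called by limma, 6 at an unadjusted p under 0.05 and 0 called without moderation, and their part was not tested. Without knockout sedentary array 3 the differences of responses were -0.68 for Slc25a25 and 0.46 for Slc25a33. The value of Slc25a33 could not move, since its value on that array equals its group mean. Slc25a25 in sedentary muscle was 0.61 (SE 0.25; adjusted p = 0.575) higher in the knockout and in exercised muscle -0.24 (SE 0.25; adjusted p = 0.965), values that share their arrays with the exercise differences. The sedentary difference was 0.30 (adjusted p = 0.881) without wild-type sedentary array 1 and 0.93 (adjusted p = 0.224) without knockout sedentary array 2.

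Slc25a36, another pyrimidine nucleotide carrier, measured 7.66, 7.23 and 7.11 in sedentary wild-type, 7.02, 6.93 and 7.13 in exercised wild-type, 7.17, 7.31 and 7.03 in sedentary knockout and 7.22, 7.24 and 7.18 in exercised knockout muscle. Its exercise difference was -0.31 (SE 0.13; adjusted p = 0.557) in wild-type and 0.04 (SE 0.13; adjusted p = 0.96) in knockout muscle. Without wild-type sedentary array 1 the wild-type difference was -0.15. Slc25a32, a folate and FAD carrier, measured 6.62, 6.49 and 6.76 in sedentary wild-type, 6.25, 6.66 and 6.57 in exercised wild-type, 6.54, 6.64 and 6.63 in sedentary knockout and 6.71, 6.78 and 6.83 in exercised knockout muscle. Its difference of responses was 0.30 (SE 0.17; adjusted p = 0.997), with no call in any contrast.

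The third comparison set knockout against wild type. No member passed: 0 in sedentary muscle, where 0.138% of all genes did, 0 in exercised muscle, against 0.175%, and 0 averaged over conditions, against 0.546%. At an unadjusted limma p under 0.05 there were 2 members in sedentary muscle (7.7% of all genes), 7 in exercised muscle (6.58%) and 7 averaged (9.36%), and without variance moderation 0 members passed the adjusted threshold in any of these. The median genotype difference of the tested members was -0.08 in sedentary, -0.04 in exercised and -0.03 in averaged form, and that of all genes was -0.02, 0.00 and -0.01. These member medians depended on single arrays: the sedentary one was -0.03 without wild-type sedentary array 3, the exercised one 0.01 without knockout exercised array 1, and the averaged one -0.07 without wild-type exercised array 1 and -0.01 without wild-type exercised array 3.

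The lowest averaged p belonged to Slc25a33, with a knockout minus wild-type difference of 0.43 (SE 0.09; 1.35-fold; limma adjusted p = 0.053). Its knockout arrays lay above its wild-type arrays in both conditions, which 1 member did, against 0.647% of all genes. In exercised muscle the difference was 0.66 (SE 0.13; adjusted p = 0.0711) and in sedentary muscle 0.21 (SE 0.13; adjusted p = 0.756). Without the wild-type exercised array 1 the averaged and exercised differences were 0.51 and 0.81 with adjusted p of 0.00736 and 0.00972. Without the knockout exercised array 3 they were 0.49 and 0.78, with adjusted p of 0.0333 and 0.0417. Other settings went the other way. Over all alternatives, with or without moderation, the adjusted p ran from 0.00736 to 0.244 averaged and from 0.00972 to 0.404 in exercised muscle.

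Slc25a42, which carries coenzyme A into the matrix, measured 7.85, 7.65 and 7.94 in sedentary wild-type, 7.45, 7.81 and 7.78 in exercised wild-type, 7.58, 7.24 and 7.76 in sedentary knockout and 6.95, 7.30 and 7.22 in exercised knockout muscle. In exercised muscle all knockout arrays lay below all wild-type arrays, while the sedentary groups overlapped. Its averaged genotype difference was -0.41 (SE 0.10; 1.32-fold lower; adjusted p = 0.117), and without the wild-type exercised array 1 it was -0.46 with an adjusted p of 0.0461. Across the alternative settings, with or without moderation, this adjusted p ran from 0.0461 to 0.333. Slc25a40, a relative of the glutathione carrier Slc25a39, measured 5.94, 5.76 and 5.91 in sedentary wild-type, 5.62, 5.83 and 5.79 in exercised wild-type, 5.71, 5.62 and 5.71 in sedentary knockout and 4.93, 5.54 and 5.35 in exercised knockout muscle. It was the 1 member whose knockout arrays lay below the wild-type arrays in both conditions, against 0.88% of all genes. The averaged difference was -0.33 (SE 0.10; adjusted p = 0.188).

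Slc25a39, needed for glutathione import into mitochondria, measured 7.77, 7.90 and 7.94 in sedentary wild-type, 7.82, 7.95 and 7.99 in exercised wild-type, 7.75, 7.61 and 7.78 in sedentary knockout and 7.66, 7.71 and 7.82 in exercised knockout muscle. Its averaged genotype difference was -0.17 (SE 0.07; adjusted p = 0.413). Slc25a23, whose array values are given above, had a difference of -0.29 (SE 0.10; adjusted p = 0.306), with overlap in both conditions. The difference of Slc25a5 was -0.20 (SE 0.08; adjusted p = 0.402).

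**Figure D3:**
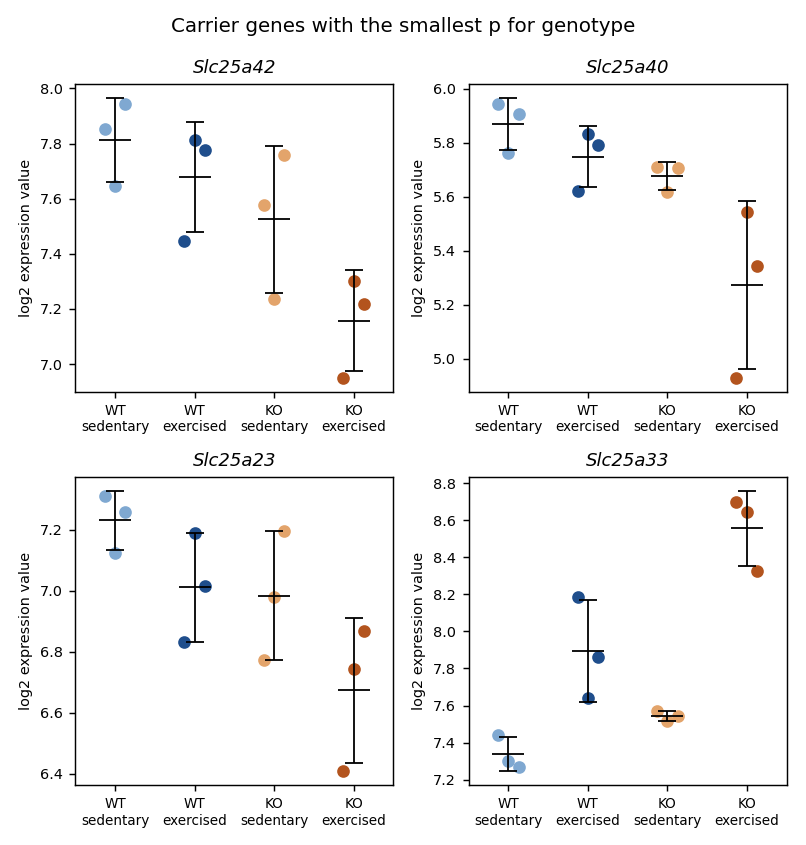
Log2 expression value on each array (points) of Slc25a42, Slc25a40, Slc25a23 and Slc25a33 in the 4 groups, with the group mean and SD (lines). The knockout arrays of Slc25a40 lie below and those of Slc25a33 above the wild-type arrays in both conditions.

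The slow-fibre and Schwann cell markers varied between arrays, and the genotypes overlapped in both. The slow-fibre list had a mean of -0.49 to 0.04 on the wild-type and -0.64 to 0.74 on the knockout arrays, with a median averaged difference of 0.37. Limma called 0 of its 8 genes, and 0 were called without moderation. At an unadjusted p under 0.05 there was 1, against 9.36% of all genes. The Schwann cell list had its highest means on wild-type exercised array 1 (0.78), knockout sedentary array 3 (0.68) and knockout exercised array 2 (0.60). Their part in the genotype values was not tested.

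Slc25a37, a mitoferrin that imports iron for haem and iron-sulfur clusters, measured 7.56, 8.36 and 8.10 in sedentary wild-type, 8.28, 8.03 and 7.88 in exercised wild-type, 7.37, 7.38 and 8.03 in sedentary knockout and 7.57, 7.52 and 8.28 in exercised knockout muscle. Its knockout and wild-type arrays overlapped, with an averaged difference of -0.34 (SE 0.16; adjusted p = 0.548). The other mitoferrin, Slc25a28, had a difference of 0.10 (SE 0.07; adjusted p = 0.771). Slc25a46, an outer-membrane member involved in mitochondrial dynamics, measured 9.40, 9.20 and 9.33 in sedentary wild-type, 9.12, 9.35 and 9.42 in exercised wild-type, 9.05, 9.12 and 9.09 in sedentary knockout and 9.15, 9.28 and 9.31 in exercised knockout muscle. In sedentary muscle its knockout arrays lay below its wild-type arrays, with a difference of -0.22 (SE 0.10; adjusted p = 0.604), and in exercised muscle the groups overlapped.

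Slc25a15, the ornithine carrier of the urea cycle, measured 6.67, 6.60 and 6.66 in sedentary wild-type, 6.64, 6.48 and 6.68 in exercised wild-type, 6.61, 6.64 and 6.59 in sedentary knockout and 6.40, 6.37 and 6.40 in exercised knockout muscle. The exercised knockout arrays were the lowest 3 of the 12, and the exercised genotype difference was -0.21 (SE 0.09; adjusted p = 0.727). Slc25a47 measured 5.78, 5.54 and 5.44 in sedentary wild-type, 5.71, 5.48 and 5.63 in exercised wild-type, 5.66, 5.93 and 5.68 in sedentary knockout and 5.95, 5.72 and 5.79 in exercised knockout muscle. Its averaged genotype difference was 0.19 (SE 0.09; adjusted p = 0.514). Slc25a15 and Slc25a47 were among 8 members grouped here as amino acid carriers, a grouping that does not establish each substrate. Of these 7 were tested and 0 passed the limma threshold for averaged exercise or genotype, with or without moderation. At an unadjusted p under 0.05 there were 0 and 1, against 11.2% and 9.36% of all genes. The tested members of this group had averaged exercise differences from -0.13 (Slc25a15) to 0.07 (Slc25a45).

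The malate-aspartate shuttle, which moves cytosolic reducing equivalents into the matrix, depends on an oxoglutarate carrier and an aspartate/glutamate carrier. Slc25a11, the oxoglutarate carrier, measured 11.10, 11.03 and 10.93 in sedentary wild-type, 10.94, 11.15 and 11.10 in exercised wild-type, 11.02, 10.86 and 10.72 in sedentary knockout and 11.04, 10.94 and 10.97 in exercised knockout muscle. Slc25a12, the aspartate/glutamate carrier of muscle and brain, measured 11.79, 11.62 and 11.61 in sedentary wild-type, 11.34, 11.58 and 11.71 in exercised wild-type, 11.57, 11.72 and 11.54 in sedentary knockout and 11.61, 11.64 and 11.65 in exercised knockout muscle. Both overlapped in every comparison of exercise or genotype, with averaged exercise differences of 0.08 (95% interval -0.05 to 0.22) and -0.05 (95% interval -0.19 to 0.09). The liver isoform Slc25a13 was not tested, with values from 3.60 to 4.63.

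The carboxylate carriers held 5 members, 4 of them tested, with averaged exercise differences from -0.12 (Slc25a35) to 0.10 (Slc25a1, the citrate carrier). Slc25a20, which brings acylcarnitines into the matrix for fatty acid oxidation, had an exercise difference of -0.06 in wild-type and 0.26 in knockout muscle, and its averaged difference of 0.10 had an adjusted p of 0.766. Among 10 cofactor, nucleotide and glutathione carriers, all tested, Slc25a33 was the one that passed for exercise.

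In sedentary muscle 1 member, Slc25a33, had all knockout arrays above all wild-type arrays, against 5.35% of all genes, and 3 had them below (Slc25a4, Slc25a40 and Slc25a46), against 7.73%. In exercised muscle 5 lay above (Slc25a27, Slc25a32, Slc25a33, Slc25a36 and Slc25a47), against 6.06%, and 5 below (Slc25a5, Slc25a15, Slc25a25, Slc25a40 and Slc25a42), 13.5% of the tested members against 5.67% of all genes.

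**Figure D4:**
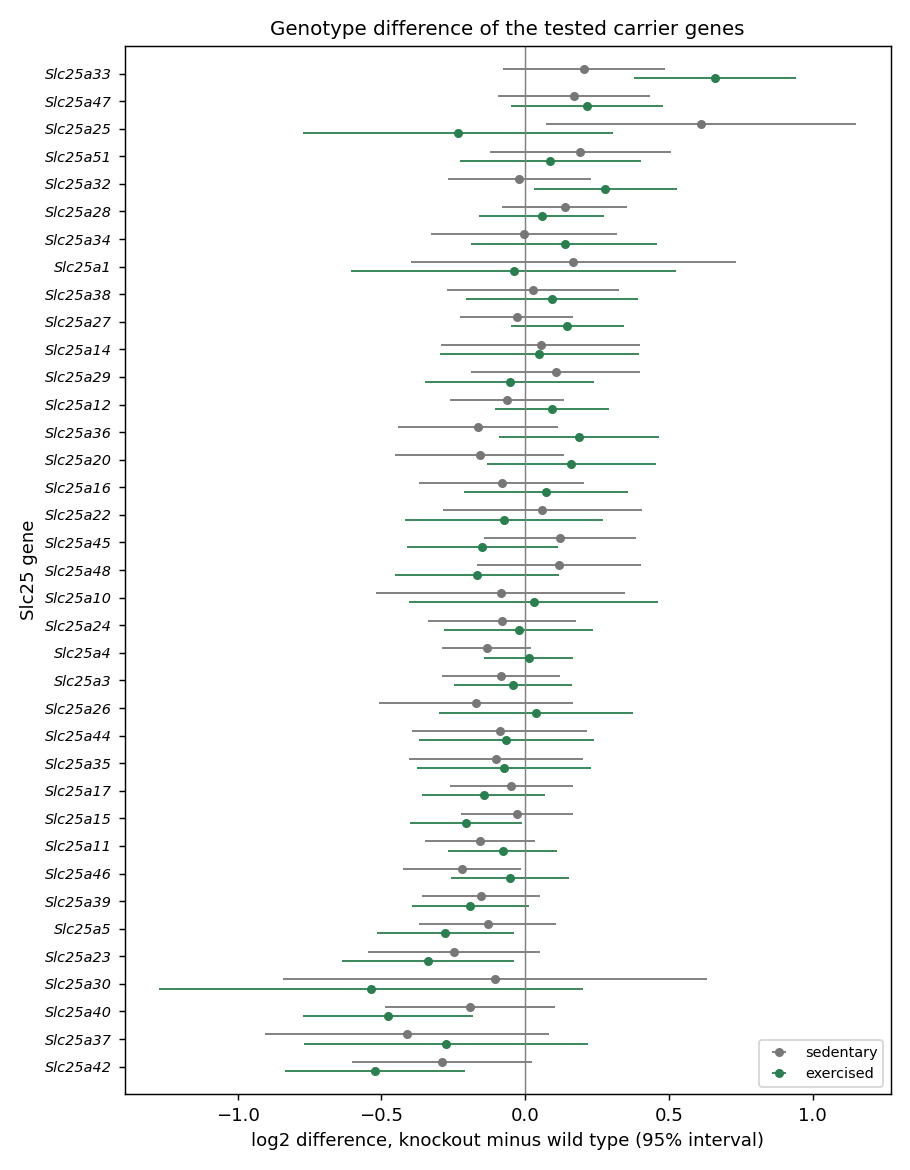
Knockout minus wild-type log2 difference of the tested carrier genes in sedentary and exercised muscle, with 95% intervals from the limma fit. The values lie between -0.54 and 0.66.

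The replicate spread differed among the members. The pooled within-group SD ran from 0.06 for Slc25a15 to 0.56 for Slc25a30, with a median of 0.18, against 0.16 over all tested genes. Slc25a1 and Slc25a25 followed Slc25a30 with 0.42 and 0.40. The 9 members not tested were Slc25a2, Slc25a13, Slc25a18, Slc25a21, Slc25a31, Slc25a41, Slc25a43, Slc25a53 and Slc25a54. Of these Slc25a13 and Slc25a53 passed the threshold on 1 array each.

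Genes of related function were read beside the carriers. Of 14 regulators of mitochondrial biogenesis, all tested, Ppargc1a and Ppara rose after exercise averaged over genotypes and 0 fell. In that contrast limma called 1.6% of all genes, and without moderation 1 of the 14 regulators was called. Ppargc1a, the coactivator PGC-1alpha, measured 9.33, 8.98 and 9.24 in sedentary wild-type, 10.15, 10.46 and 10.88 in exercised wild-type, 8.70, 9.61 and 9.29 in sedentary knockout and 10.75, 11.003 and 10.95 in exercised knockout muscle. It rose by 1.31 (SE 0.20; adjusted p = 0.00429) in wild-type and by 1.70 (SE 0.20; adjusted p = 0.001) in knockout muscle. Ppara, a fatty-acid-sensing nuclear receptor, rose by 0.44 (SE 0.09; adjusted p = 0.0245) averaged over genotypes. Of the list of other mitochondrial membrane transporters, 17 of 21 were tested. For averaged exercise or genotype 0 of them passed in the limma fit, with or without moderation (2 and 1 at an unadjusted p under 0.05). Their median exercise difference was -0.04. Over all genes 11.2% and 9.36% had an unadjusted p under 0.05 in these 2 contrasts. Sfxn3, a sideroflexin, had an exercise difference of -0.30 (SE 0.10; adjusted p = 0.208), and Micu2, a regulator of the calcium uniporter, a genotype difference of -0.22 (SE 0.09; adjusted p = 0.483). Of the shuttle and carnitine enzymes 10 of 11 were tested and 0 passed in the same contrasts, with or without moderation (0 and 2 at an unadjusted p under 0.05), and the median exercise difference was -0.03. Cpt2 and Mdh1 had genotype differences of -0.25 (SE 0.08; adjusted p = 0.295) and -0.16 (SE 0.06; adjusted p = 0.352).

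The uncoupling proteins and Mtch genes belong to the carrier family but carry other symbols. Of 5 such genes 4 were tested and 0 passed for averaged exercise or genotype in the limma fit, with or without moderation. At an unadjusted p under 0.05 there were 2 and 1, against 11.2% and 9.36% of all genes. Ucp3, the muscle uncoupling protein, measured 8.73, 9.18 and 9.09 in sedentary wild-type, 9.14, 10.06 and 9.72 in exercised wild-type, 9.97, 9.55 and 9.02 in sedentary knockout and 9.76, 9.54 and 9.83 in exercised knockout muscle, with an averaged exercise difference of 0.42 (SE 0.16; adjusted p = 0.31). Ucp1, the uncoupling protein of brown fat, measured 4.82, 4.88 and 5.23 in sedentary wild-type, 4.84, 4.34 and 4.24 in exercised wild-type, 4.04, 4.41 and 4.04 in sedentary knockout and 4.15, 4.14 and 3.97 in exercised knockout muscle. Its genotype difference was -0.60 (SE 0.13; adjusted p = 0.053), with values near the filter threshold. Every knockout array lay below that threshold, as did some exercised wild-type arrays. Ucp1 thus passed the filter through wild-type arrays only, and the size of its difference is limited by low signal in the knockout. Ucp1 is also a brown adipocyte marker, 1 of the 2 tested markers of that list. Their mean ran from -0.14 to 0.40 on the wild-type and from -0.34 to -0.07 on the knockout arrays. That mean contains the values of Ucp1 and so is not separate from its genotype difference. Elovl3 lay below the filter, and the part of brown adipocytes was not tested.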

How the data were processed

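The authors deposited log2 expression values, 1 per transcript cluster and array. That these are log2 values was read from their range of 0.36 to 13.9. Partek is named in the submitters' processing notes, without a version. Background correction, normalisation, summarisation and genome build are not given in the sources used here. Rows were named from the platform annotation: 23521 of 41345 had 1 symbol, 1814 several and 16010 none. 1 row naming Rangrf and Slc25a35 together was left out. For a gene with several rows the one with the highest mean was used. RefSeq tables (GRCm38.p6) gave names and promoter windows.

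One limma 3.58.1 fit (R 4.3.3) of 4 group means over 12 arrays, with 8 residual degrees of freedom and a trended variance, gave 7 contrasts. P-values were Benjamini-Hochberg adjusted over the 13747 genes within each, and 0.05 was the threshold. The arrays' number limits the precision. The fit was tested on simulated data.

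Array values are given for every called member, then for members with the smallest p up to 16 in all, the 5 with the highest mean, and the ADP/ATP and ATP-Mg carriers. Of other lists, called genes or, if none, the 2 with the smallest p could be named. Members and lists were chosen with earlier results of these data known. Alternatives were filters, centring, variance settings, row choice, fits of 2 groups and leaving out each array.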

Additional observations from a re-analysis of the deposited data

How the results depend on the processing

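The alternatives were followed for 38 of 259 pairs of member and contrast, those with an unadjusted limma p under 0.05 in the main fit. Of their 706 values, 686 kept direction and side of the threshold, 10 lost a call, 10 gained one and none reversed. Most of these pairs were uncalled at the start and were picked for a small p, so this count does not measure robustness. The lost calls were those of Slc25a30 averaged (8 settings), Slc25a25 in wild-type (1) and Slc25a33 in knockout muscle (1). Without variance moderation, by ordinary t-tests on the same group means, 0 members passed for exercise in wild-type and 0 in knockout muscle. By these t-tests Slc25a25 in wild-type and Slc25a33 in knockout muscle had adjusted p of 0.111 and 0.12, and Slc25a30 had 0.237 averaged. Leaving out 1 array gave 2 to 4 members called for exercise averaged over genotypes, as median centring (4) and no moderation (2) also did, 1 to 2 for exercise in wild type, 1 to 2 in knockout, 0 to 1 for genotype in exercised muscle and 0 to 2 for genotype averaged. The member median then ran from 0.0081 to 0.091 for exercise in knockout, -0.053 to 0.0088 in wild type, 0.0081 to 0.0347 averaged, -0.0338 to 0.0584 for the difference of responses, and -0.0865 to -0.0265, -0.0743 to 0.0094 and -0.0726 to -0.0073 for genotype in sedentary, exercised and averaged form, so that those for exercise in wild type, the difference of responses and genotype in exercised muscle turned sign. The cause was not tested. Counts over all genes moved by more than 1.5 times in these settings: exercise in wild type 78 to 12 without moderation and to 46 without wild-type sedentary array 1 or wild-type exercised array 3, exercise in knockout 38 to 67 with median centring, 24 without trend, 25 with 2 groups only, 0 without moderation and 16 to 71 leaving out 1 array. Genotype in sedentary muscle went from 19 to 1 without moderation and to 6 to 12 leaving out 1 array, and in exercised muscle from 24 to 1 without moderation, 13 with 2 groups only and 5 to 40 leaving out 1 array. Exercise averaged went from 220 to 67 without moderation and to 144 without wild-type sedentary array 1 or wild-type exercised array 3, and genotype averaged from 75 to 42 without trend, 23 without moderation and 38 to 149 leaving out 1 array. The mean over rows changed no member, since each has 1 row. No paired analysis was possible because the labels share no replicate numbers. Differences in members with values near the filter threshold are limited by signal over background, which the deposited values do not give.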

Other observations

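The creatine and adenylate kinases use the ATP that the ADP/ATP carriers export. Of 7 such genes 4 were tested, and 0 passed for averaged exercise or genotype in the limma fit, with or without moderation. At an unadjusted p under 0.05 there were 1 and 1, against 11.2% and 9.36% of all genes. Ckmt2, the mitochondrial creatine kinase of muscle, had a knockout minus wild-type difference of -0.21 (SE 0.06; limma, Benjamini-Hochberg adjusted p = 0.18). Ak1, a cytosolic adenylate kinase, had a difference of -0.13 (SE 0.06; adjusted p = 0.558). In the reference gene order 4 pairs of members are neighbours, Slc25a29 with Slc25a47, Slc25a41 with Slc25a23, Slc25a54 with Slc25a24 and Slc25a43 with Slc25a5.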
